A study of Mus musculus with 8 samples.

Results

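The mechanistic target of rapamycin (mTOR) kinase, its complex partners and its direct regulators were examined as mRNA in bone-marrow-derived macrophages (BMDMs). The 10 genes were taken by name from the annotation, and all 10 of them were found among the 55359 genes of the table: Mtor, Rptor, Rictor, Mlst8, Tsc1, Tsc2, Rheb, Deptor, Akt1s1 and Ddit4. All 10 also exceeded the minimum of 10 normalized counts on average and were therefore among the 16309 genes tested. The rule used gene names and no measured value.

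BMDMs were differentiated from the bone marrow of adult male and female wildtype C57BL/6 mice with 20 ng/mL M-CSF and 20 ng/mL GM-CSF, for which the submitters give 6 days in one protocol and 7 in another. The 4 groups held 2 samples each. Ctrl was naïve and unstimulated, LPS was naïve and received LPS (100 ng/mL) with IFNγ (100 U/mL) for 6 h, Eff had been co-cultured with apoptotic fibroblasts, and LPSEff received both in this order. Co-culture lasted 16 h at 5 apoptotic cells per macrophage (Mϕ). The apoptotic cells were NIH-3T3 CA fibroblasts, a mouse line that carries an activatable caspase-8 and had been pre-treated with 10.0 nM dimerizer. The dimerizer stayed present at 10.0 nM during the co-culture, so that the Mϕ of Eff and LPSEff were exposed to it as well. Whether the naïve groups also met the dimerizer is not stated in the sources used here. The Mϕ were washed and sorted for CD45 before total RNA was sequenced. Nothing says that the samples of a group came from separate animals or cultures, so that the p-values measure the spread between these samples, which may be technical.

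mTOR is a serine/threonine kinase that works in a pair of complexes. mTORC1 contains Raptor (Rptor), responds to amino acids, energy and growth factors at the lysosome and promotes translation and growth, whereas mTORC2 contains Rictor and phosphorylates AKT and related kinases. The TSC complex restrains the small GTPase Rheb, which in turn activates mTORC1. In Mϕ, mTOR signaling is known to shape cytokine production, metabolism and autophagy.

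Each sample held between 3481288 (Ctrl, replicate 1) and 12020918 (Ctrl, replicate 2) reads on genes. A normalized count is a read count divided by a size factor of the sample. Sums of normalized counts were 6.59e+06 to 6.95e+06 in the unstimulated and 8.47e+06 to 9.49e+06 in the stimulated samples, which bears on the scaling of each LPS/IFNγ comparison. Behind each value of the 10 genes stood at least 38 reads (Deptor) and at most 2685 (Ddit4). The 12 Mϕ markers summed to 109054 to 166145 normalized counts in every sample, none of them at 0. The 15 fibroblast markers summed to 185 to 408 in Ctrl, 821 to 893 in LPS, 1747 to 3670 in Eff and 4970 to 5537 in LPSEff, again with no marker at 0 in both samples of a group. Of the 13 tested, 2 were called higher in LPS vs Ctrl, namely Col5a1 (mean 145 to 357) and Pdgfrb (13.4 to 245). In LPSEff vs Eff, Pdgfrb alone was called higher, and no fibroblast marker was called lower in either contrast. The 11 granulocyte markers summed to 784 to 1135 in Ctrl and 1178 to 1628 in Eff, but to 1875 to 2328 in LPS and 1930 to 2659 in LPSEff, so that all stimulated were above all unstimulated samples. Of the 7 tested, 3 were called higher in LPS vs Ctrl (S100a8, Ngp and Camp) and 1 in LPSEff vs Eff (Camp). The 8 dendritic cell markers summed to 423 to 1331 in Ctrl, 952 to 3257 in LPS, 308 to 793 in Eff and 714 to 1395 in LPSEff, with Xcr1 called higher in LPS vs Ctrl and no other of the 5 tested called in either contrast. The 9 lymphocyte markers, none of them high enough to be tested, summed to 9.25 to 33.6. At 0 in both samples of a group were Cd209a in LPSEff, Fcer1a in Eff and up to 3 lymphocyte markers. The part of such other cells in the LPS/IFNγ results was not tested. All 10 genes chosen to check the stimulation, among them Nos2 and Il6, were called higher with LPS/IFNγ in naïve as well as in efferocytic Mϕ.

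Mtor, Rictor and Ddit4 were the 3 members with higher normalized counts in all 4 stimulated than in all 4 unstimulated samples. Their sequences upstream of the annotated start are shown because of this order of the samples, so that the choice rests on these same counts. The 250 bases before the start were taken from RefSeq on GRCm38.p6, an older build than the mm39 used for the counts, and lie at chr4:148448332-148448581 (Mtor, plus strand), chr15:6708131-6708380 (Rictor, plus strand) and chr10:59951771-59952020 (Ddit4, minus strand). Capitals mark matches to the motifs named next, on either strand, and overlapping matches run together.
Mtor: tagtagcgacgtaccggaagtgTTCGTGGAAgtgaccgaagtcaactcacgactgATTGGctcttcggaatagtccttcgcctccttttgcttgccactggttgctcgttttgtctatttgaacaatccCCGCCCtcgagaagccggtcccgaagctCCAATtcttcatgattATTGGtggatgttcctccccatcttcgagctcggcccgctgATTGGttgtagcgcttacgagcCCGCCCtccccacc
Rictor: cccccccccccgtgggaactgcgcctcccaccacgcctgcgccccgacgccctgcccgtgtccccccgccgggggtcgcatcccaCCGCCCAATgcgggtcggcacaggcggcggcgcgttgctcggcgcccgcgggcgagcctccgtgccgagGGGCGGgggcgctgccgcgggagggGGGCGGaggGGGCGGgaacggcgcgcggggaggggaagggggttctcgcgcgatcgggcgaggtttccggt
Ddit4: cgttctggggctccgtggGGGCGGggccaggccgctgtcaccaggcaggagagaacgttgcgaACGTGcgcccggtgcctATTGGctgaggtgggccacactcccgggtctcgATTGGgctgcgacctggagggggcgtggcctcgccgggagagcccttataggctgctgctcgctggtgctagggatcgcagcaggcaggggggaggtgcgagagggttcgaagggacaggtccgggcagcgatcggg

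Mtor, Rictor and Ddit4 each held the GC box GGGCGG, which was found in 32.7% of 32851 promoters of the same length, and the CCAAT box, found in 33.8%. The upstream sequences of the other 6 members with an entry held the GC box in Rheb and Akt1s1 and no CCAAT box. The CCAAT box was thus in 3 of 9 members, near the 33.8% of all promoters. A match to the interferon-γ activated site TTCNNNGAA (7.02% of promoters) began 228 bases before the start of Mtor and occurred in no other member. Ddit4 held the hypoxia response core ACGTG (16.6%), which began 187 bases before its start and was also present in Rptor and Rheb. Every CACGTG E-box (6.02%, here Rheb) also holds ACGTG. The NF-κB consensus (7.25%) matched in Tsc1 and Akt1s1. The interferon-stimulated response element, GAAA repeated after any 2 bases (2.98%), AP-1 TGANTCA (6.75%), CRE TGACGTCA (1.55%) and ATF4 composite TGATGNAA (3.45%) had no match in the 9 members. GC content was 54.4% for Mtor, 81.2% for Rictor and 70% for Ddit4. Such matches describe letters and not binding. Deptor had no entry.

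The first question was how an inflammatory stimulus changed these mRNAs in naïve and in efferocytic Mϕ. Rictor rose and Deptor fell in both settings. Mtor was called higher in naïve Mϕ, and its rise in efferocytic Mϕ (log2 0.37) was not called. Ddit4 was called higher in efferocytic Mϕ, and its rise in naïve Mϕ (log2 1.68) was not called. For neither gene was a difference between these settings called (limma adjusted p = 0.9999 for the interaction). In LPS vs Ctrl, 3 of the 10 genes were called by limma at an adjusted p under 0.05 (2 higher, 1 lower), beside 24.0% of all tested genes (12.4% higher, 11.6% lower). In LPSEff vs Eff, 3 were called as well (2 higher, 1 lower), beside 19.7% (10.7% higher, 8.95% lower). The median log2 fold change of the 10 genes was -0.19 in naïve and -0.06 in efferocytic Mϕ, against -0.01 and 0.01 over all tested genes. Averaged over naïve and efferocytic Mϕ, 5 members were called (Mtor, Rictor and Ddit4 higher, Mlst8 and Deptor lower), beside 36.5% of all genes (17.9% higher, 18.6% lower). In such bulk samples, fewer cells of a type and less RNA per cell cannot be told apart.

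**Figure D1:**
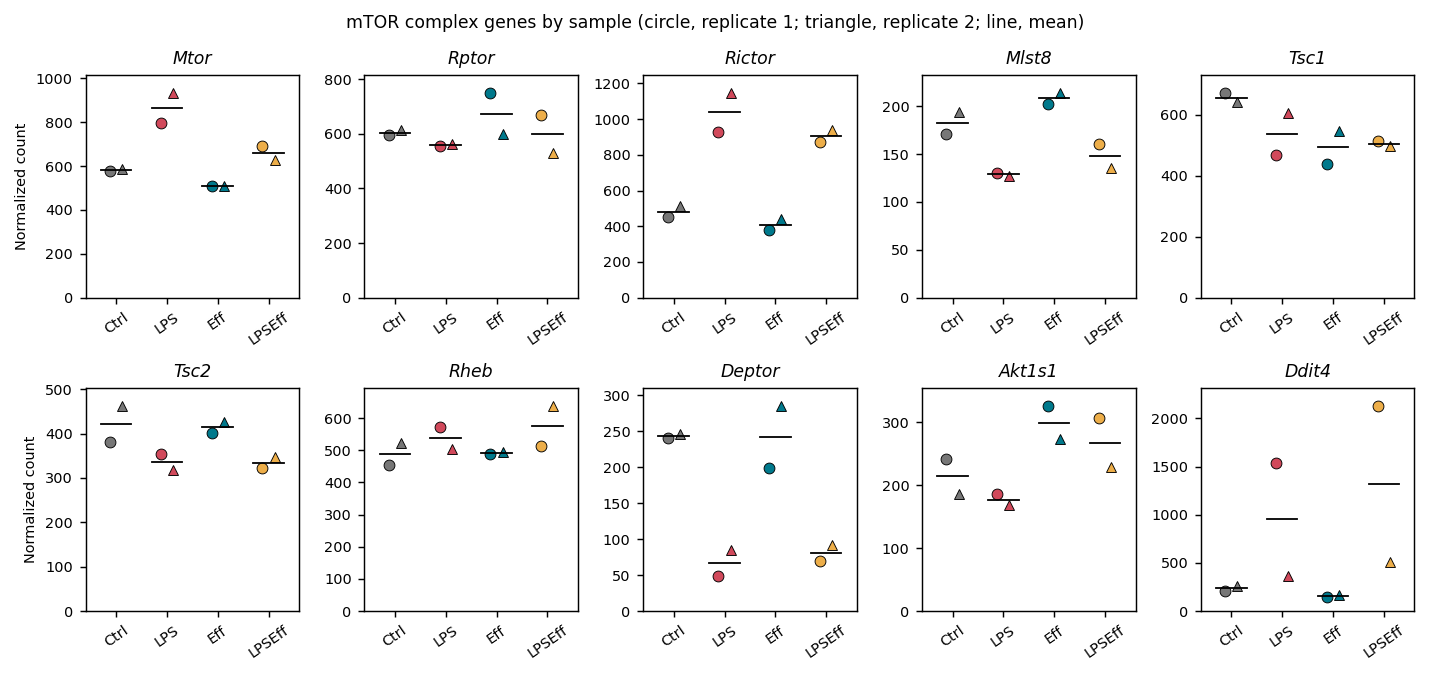
Normalized counts (linear axis from 0, own scale per gene) of the 10 genes in each sample of Ctrl, LPS, Eff and LPSEff, with circles for replicate 1, triangles for replicate 2 and lines for group means. Rictor lay between 869 and 1146.5 in the stimulated and between 379 and 514 in the unstimulated samples, and Deptor showed the opposite order.

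Mtor encodes the kinase itself (ENSMUSG00000028991, GRCm39 chromosome 4, 148533015 to 148642141, plus strand). It had 579 and 586 normalized counts in the samples of Ctrl, 797 and 933 (LPS), 510.0 and 507 (Eff), and 690.4 and 626 (LPSEff). All stimulated samples were above all unstimulated samples. The mean rose from 583 ± 5.33 to 865 ± 96.5 (SD, n = 2), a 1.48-fold difference (log2 0.56, SE 0.17, limma adjusted p = 0.0450). In efferocytic Mϕ the log2 difference was 0.37, with a 95% interval of -0.02 to 0.76, and was not called (limma adjusted p = 0.177). The naïve call passed in 6 of 18 alternatives. It was lost when any of the 8 samples was left out (limma adjusted p from 0.0612 to 0.168, with LPS replicate 1 and LPS replicate 2 out giving log2 0.68 and 0.45), and the difference shrank to 0.16 (limma adjusted p = 0.454) when samples were rescaled to equal totals, where its efferocytic counterpart was -0.08. It was also lost with quantile normalization (0.139), only the groups compared (0.124) or genes with a mean above 0 (0.153). The effect averaged over both settings (log2 0.47, SE 0.12, limma adjusted p = 0.0169) passed in 10 of 17 alternatives.

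Rescaling to equal totals shifted the median of all tested genes to -0.40 in LPS vs Ctrl and -0.44 in LPSEff vs Eff, and turned 2015 higher calls of 3910 into 1420 of 5735 (35.2% of all tested genes called), and 1753 of 3213 into 1216 of 5578 (34.2%). Relative to that median, Mtor differed by 0.57 in naïve and 0.35 in efferocytic Mϕ, close to the 0.58 and 0.36 under the deposited scaling.

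Rictor, the defining subunit of mTORC2 (ENSMUSG00000050310, chromosome 15, 6737860 to 6829882, plus strand), had 449 and 514 normalized counts (Ctrl), 929 and 1146.5 (LPS), 379 and 440.4 (Eff), and 869 and 938 (LPSEff). The lowest stimulated sample thus exceeded the highest unstimulated sample. LPS/IFNγ raised Rictor 2.15-fold in naïve Mϕ (log2 1.10, SE 0.19, limma adjusted p = 0.00469) and 2.21-fold in efferocytic Mϕ (log2 1.14, SE 0.19, limma adjusted p = 0.00461). Both calls held under each of the 18 alternatives run for either contrast, with log2 values from 0.69 to 1.25. Equal totals gave 0.70 and 0.69.

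Rptor, the substrate-recruiting subunit of mTORC1 (ENSMUSG00000025583, chromosome 11, 119493731 to 119790402, plus strand), showed no such pattern. It had 596 and 612 normalized counts (Ctrl), 556 and 564 (LPS), 749 and 598 (Eff), and 667 and 530.5 (LPSEff), so that stimulated and unstimulated samples overlapped. The log2 differences were -0.11 in naïve (95% interval -0.56 to 0.34) and -0.17 in efferocytic Mϕ (-0.62 to 0.28), with limma adjusted p of 0.747 and 0.614. With equal totals, Rptor was at -0.51 and -0.62 and was called in efferocytic Mϕ (limma adjusted p = 0.0891 and 0.0488). Relative to the median of all genes it then differed by -0.11 and -0.18, close to the -0.10 and -0.17 under the deposited scaling. Rptor shares 6.11% of its exon bases with another gene model on the same strand, which is not among the genes of the counts.

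Mlst8 encodes the subunit common to both complexes (ENSMUSG00000024142, chromosome 17, 24692524 to 24698057, minus strand). Its normalized counts were 171 and 194 (Ctrl), 131 and 127 (LPS), 202 and 214 (Eff), and 161 and 136 (LPSEff). Every stimulated sample was below every unstimulated sample. Neither contrast alone was called (log2 -0.50 and -0.49, limma adjusted p = 0.118 and 0.135), whereas the effect averaged over naïve and efferocytic Mϕ was (log2 -0.49, SE 0.14, limma adjusted p = 0.0275). That averaged call was lost without any sample but LPSEff replicate 1 (limma adjusted p from 0.0517 to 0.0905) as well as in DESeq2 (adjusted p = 0.0776), with quantile normalization (0.0548) and with genes of a mean above 0 (0.0934). With equal totals both single contrasts were called as well (-0.90 and -0.94, limma adjusted p = 0.0109 and 0.00953), at -0.49 and -0.50 relative to the median of all genes. Of its exon bases, 23.7% overlap Bricd5 on the opposite strand.

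Deptor and Akt1s1 encode inhibitory partners of mTOR. Deptor (ENSMUSG00000022419, chromosome 15, 54975710 to 55122667, plus strand), which binds mTOR in both complexes, had 239.9 and 245 normalized counts (Ctrl), 49.1 and 84.3 (LPS), 198 and 284 (Eff), and 68.9 and 91.4 (LPSEff). The highest stimulated sample remained below the lowest unstimulated sample. The mean fell from 243 ± 3.73 to 66.7 ± 24.8 (SD, n = 2) in naïve Mϕ (log2 -1.90, SE 0.32, limma adjusted p = 0.00410) and from 241 ± 61.1 to 80.1 ± 15.9 in efferocytic Mϕ (log2 -1.57, SE 0.32, limma adjusted p = 0.0108). The efferocytic call was lost without Eff replicate 2 (log2 -1.31, limma adjusted p = 0.0782) or LPSEff replicate 1 (-1.37, 0.0735).

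Akt1s1 encodes PRAS40, an mTORC1 inhibitor and AKT substrate (ENSMUSG00000011096, chromosome 7, 44498415 to 44504908, plus strand). It had 242 and 186 normalized counts (Ctrl), 186 and 168 (LPS), 325 and 273 (Eff), and 306 and 228 (LPSEff). Stimulated and unstimulated samples overlapped, and LPS/IFNγ gave log2 differences of -0.26 (95% interval -0.80 to 0.28) in naïve and -0.17 (-0.71 to 0.37) in efferocytic Mϕ, neither of them called (limma adjusted p = 0.481 and 0.680).

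Ddit4 encodes REDD1, a stress-induced protein that restrains mTORC1 through the TSC complex (ENSMUSG00000020108, chromosome 10, 59785491 to 59788492, minus strand). It had 209 and 261 normalized counts (Ctrl), 1538 and 369 (LPS), 145 and 163 (Eff), and 2126 and 511 (LPSEff). All stimulated samples were above all unstimulated samples, but replicate 1 was far above replicate 2 in both stimulated groups. In LPSEff vs Eff, the mean of 1319 against 154 gave an 8.57-fold rise (log2 2.76, SE 0.74, limma adjusted p = 0.0339). In LPS vs Ctrl, the 4.05-fold difference of the means (log2 1.68, SE 0.74, 95% interval -0.02 to 3.38) was not called (limma adjusted p = 0.145). Between samples of the same number, LPS was 7.34-fold of Ctrl for replicate 1 and 1.41-fold for replicate 2, and LPSEff was 14.7-fold and 3.14-fold of Eff.

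The Ddit4 calls in single contrasts depended on single samples and on the scaling. Without LPS replicate 2, LPS vs Ctrl reached log2 2.71 (limma adjusted p = 0.0336). Without LPSEff replicate 1, LPSEff vs Eff dropped to 1.73 (0.183), and the call was also lost without either sample of Ctrl or of Eff (limma adjusted p from 0.0571 to 0.129) and with equal totals (log2 2.31, limma adjusted p = 0.0546). The effect averaged over both settings (log2 2.22, SE 0.52, limma adjusted p = 0.0114) stayed called in all 17 alternatives, with the highest adjusted p at 0.0412. The 2 LPS/IFNγ effects differed by 1.07 on the log2 scale (SE 1.05, limma adjusted p = 0.9999 for the interaction).

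**Figure D2:**
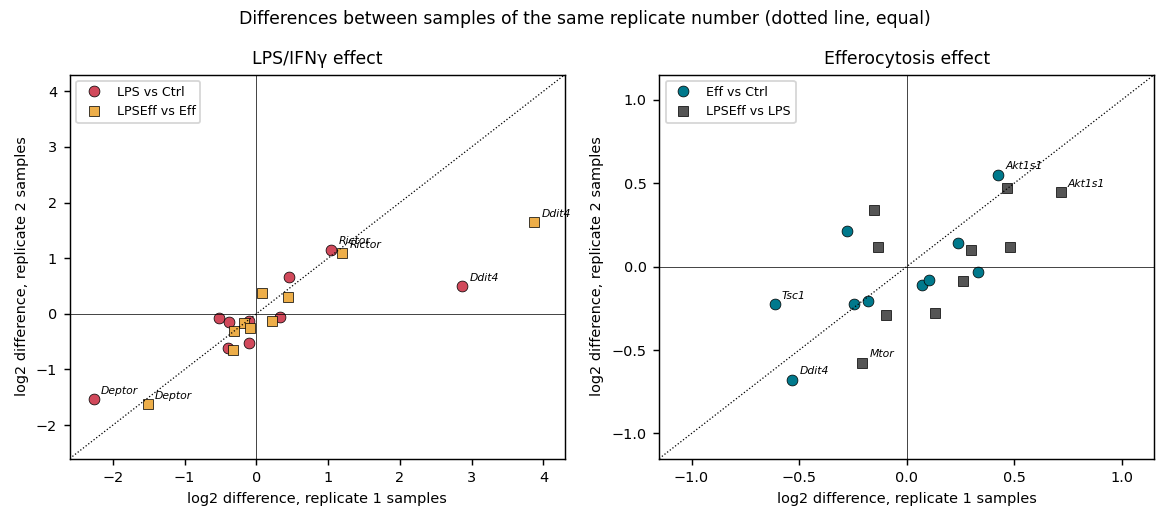
Log2 differences of normalized counts between samples of the same replicate number, replicate 1 on the x axis and replicate 2 on the y axis, for each of the 10 genes. Ddit4 lay far to the right of the dotted line of equality for LPS/IFNγ (2.87 against 0.49 in naïve and 3.87 against 1.64 in efferocytic Mϕ), while Rictor lay close to it.

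Tsc1 and Tsc2 form the TSC complex, in which Tsc2 is the GTPase-activating protein for Rheb. Tsc1 (ENSMUSG00000026812, chromosome 2, 28531061 to 28581179, plus strand) had 672 and 642 normalized counts (Ctrl), 468 and 606 (LPS), 439 and 548 (Eff), and 513 and 499 (LPSEff). Ctrl was above all other samples, and the other groups overlapped. Tsc2 (ENSMUSG00000002496, chromosome 17, 24814783 to 24852192, minus strand) had 381 and 461 (Ctrl), 353 and 319 (LPS), 400.5 and 427 (Eff), and 321 and 346 (LPSEff). All stimulated samples of Tsc2 were below all unstimulated ones. Under the deposited scaling no LPS/IFNγ contrast of Tsc1 or Tsc2 was called: Tsc1 differed by -0.30 in naïve and 0.04 in efferocytic Mϕ (limma adjusted p = 0.330 and 0.912), Tsc2 by -0.32 and -0.31 (0.261 and 0.301). With equal totals, Tsc2 was called in both (-0.72 and -0.76, limma adjusted p = 0.0153 and 0.0132) and Tsc1 in naïve Mϕ (-0.70, 0.0153), while Tsc1 turned to -0.41 in efferocytic Mϕ (0.105). Relative to the median of all genes, these values were -0.32 and -0.32 for Tsc2 and -0.30 and 0.03 for Tsc1. The averaged effect of Tsc2 (-0.31) was also called with quantile normalization (-0.37, limma adjusted p = 0.0433). Tsc2 shares 6.76% of its exon bases with Pkd1 and 5.28% with Nthl1, both on the opposite strand.

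Rheb encodes the GTPase that activates mTORC1 (ENSMUSG00000028945, chromosome 5, 25007821 to 25047622, minus strand). Its normalized counts of 455 and 522 (Ctrl), 572 and 503 (LPS), 489 and 494 (Eff), and 515 and 637 (LPSEff) overlapped between stimulated and unstimulated samples. The differences of 0.14 (95% interval -0.30 to 0.57) and 0.22 (-0.21 to 0.65) on the log2 scale were not called (limma adjusted p = 0.663 and 0.479), and they turned to -0.26 and -0.23 with equal totals.

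Across the LPS/IFNγ comparison, 3 members lay above (Mtor, Rictor, Ddit4), 3 lay below (Mlst8, Tsc2, Deptor) and 4 overlapped (Rptor, Tsc1, Rheb, Akt1s1) when all 4 stimulated were set against all 4 unstimulated samples. Over all tested genes, 17.0% lay above and 18.9% below in this way.

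**Figure D3:**
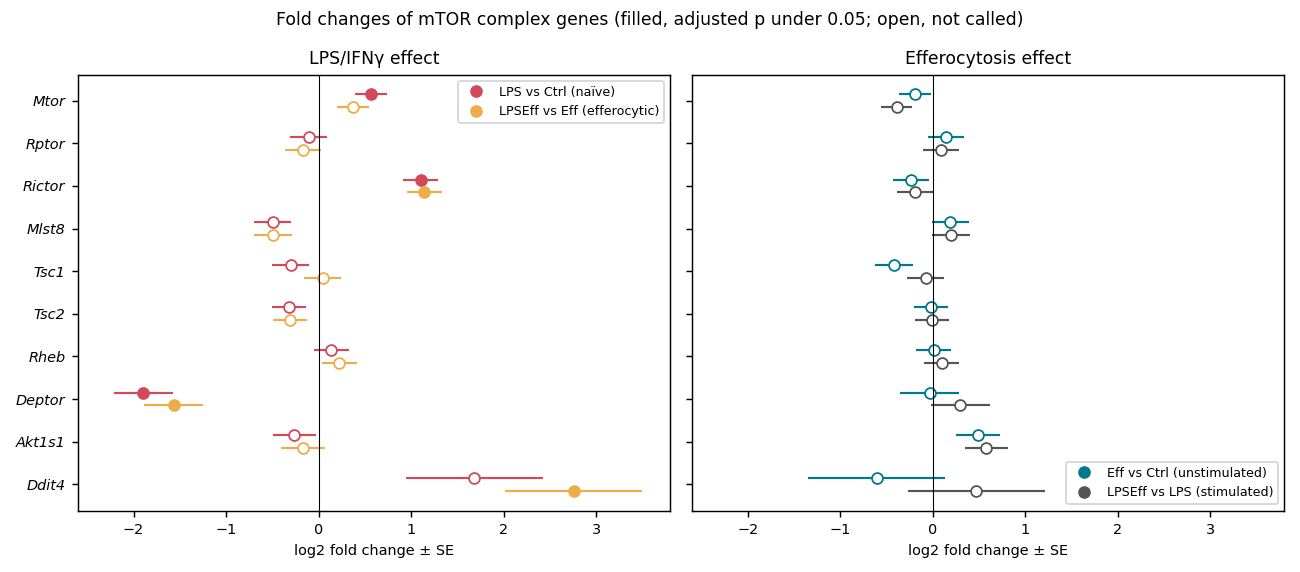
Log2 fold changes with their SE from limma for the 10 genes, with the effect of LPS/IFNγ on the left and of efferocytosis on the right. Filled points had an adjusted p under 0.05, which applied to Mtor, Rictor, Deptor and Ddit4 in at least 1 LPS/IFNγ contrast and to no gene in the efferocytosis contrasts.

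The second question was how prior efferocytosis changed these mRNAs. None of the 10 genes was called in Eff vs Ctrl by limma, beside 0.251% of all tested genes, and none in LPSEff vs LPS, beside 0.773%. At an unadjusted p under 0.05, the number of members was 0 and 1 (Akt1s1), beside 1000 and 1679 of the 16309 tested genes. In both contrasts edgeR and DESeq2 called 0 members, beside 14 and 126 (edgeR) and 204 and 368 (DESeq2) of all genes. For the effect averaged over unstimulated and stimulated Mϕ, 0 members were called, beside 1.92%. An unadjusted p under 0.05 was reached by 2 members (Mtor and Akt1s1), beside 2192 of the 16309 tested genes. All 10 genes overlapped between the 4 efferocytic and the 4 naïve samples, whereas 2.83% of all tested genes lay above and 1.58% below.

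Akt1s1 showed a higher mean in both efferocytic groups. Eff was 1.40-fold of Ctrl (log2 0.49, SE 0.24, 95% interval -0.05 to 1.03, limma adjusted p = 0.887). LPSEff was 1.51-fold of LPS (log2 0.58, SE 0.24, 0.04 to 1.12, limma adjusted p = 0.446). Samples of the same number gave 1.34-fold and 1.47-fold without and 1.65-fold and 1.36-fold with LPS/IFNγ. The averaged difference was 0.53 (SE 0.17, limma adjusted p = 0.200). Mtor was 0.873-fold of Ctrl in Eff and 0.761-fold of LPS in LPSEff, and its averaged difference was -0.29 (SE 0.12, limma adjusted p = 0.344). Of the 15 fibroblast markers 13 were tested, of which 5 were called higher in Eff than in Ctrl and 7 in LPSEff than in LPS. Among those not called, Thy1 was 0.817-fold of Ctrl in Eff and 0.678-fold of LPS in LPSEff, and Pdgfrb 2.14-fold and 0.489-fold. The part of these markers in the member differences was not tested.

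Tsc1 was 0.751-fold of Ctrl in Eff (log2 -0.42, 95% interval -0.88 to 0.04, limma adjusted p = 0.875) and differed by -0.07 in stimulated Mϕ (-0.54 to 0.39). Ddit4 was 0.653-fold of Ctrl in Eff (log2 -0.60, -2.31 to 1.10) and differed by 0.47 between LPSEff and LPS (-1.23 to 2.17). For Rptor, Rictor, Mlst8, Tsc2, Rheb and Deptor, the log2 differences lay between -0.23 and 0.30 in the efferocytosis contrasts. Whether the LPS/IFNγ effect differed between naïve and efferocytic Mϕ was tested as an interaction. It was called by limma for 0 members and 0 genes overall (0% of those tested), with 311 genes at an unadjusted p under 0.05, and by edgeR and DESeq2 for 0 genes each (369 and 244 at an unadjusted p under 0.05). The intervals of the interaction were wide, from -0.58 to 0.66 for Rictor and from -1.33 to 3.48 for Ddit4.

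Between genes, levels were compared as mean normalized counts per kilobase of exons. In Ctrl, Ddit4 stood first with 86.7 per kilobase, followed by Rheb (61.4), Mtor (55.6), Tsc1 (45.4), Rptor (44.9), Akt1s1 (44.4), Mlst8 (41.0), Tsc2 (40.7), Rictor (28.3) and Deptor (27.3). Between Rheb and Mtor, from Tsc1 to Tsc2, and between Rictor and Deptor, neighbours in this order differed by less than the larger SD of the pair, and no test was made between genes. In LPS, Ddit4 reached 351 and Deptor 7.52 per kilobase, and Rictor (61.0) stood next to Rheb (67.5). In Eff, Akt1s1 (62.0) and Rheb (61.7) led and Rictor (24.1) was last. In LPSEff, Ddit4 had 486 and Deptor 9.03 per kilobase.

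To compare opposing partners independently of the scaling between samples, ratios of normalized counts were formed within each sample. Rptor to Rictor was 1.33 and 1.19 (Ctrl), 1.98 and 1.36 (Eff), 0.599 and 0.492 (LPS), and 0.768 and 0.566 (LPSEff). The ratio was lower in all stimulated than in all unstimulated samples (log2 difference -1.26, exact two-sided permutation test, n = 4 per group, p = 0.0286, adjusted over 8 ratio comparisons 0.114). Rheb to Tsc2 was 1.13 to 1.22 in the unstimulated and 1.58 to 1.84 in the stimulated samples (log2 difference 0.49, exact permutation test, p = 0.0286, adjusted 0.114). The smallest p that 4 against 4 samples allow is 0.0286, and none of the 8 comparisons passed after adjustment. With only 2 of 8 comparisons at this smallest p, none could pass, so that the adjusted values decide nothing about these 2 ratios. Akt1s1 to Mtor differed by 0.83 between efferocytic and naïve samples (exact permutation test, p = 0.0571, adjusted 0.152) and by -0.68 with LPS/IFNγ (p = 0.143, adjusted 0.286, same test by exact permutation). Tsc1 to Tsc2 differed by 0.19 with LPS/IFNγ and by -0.23 with efferocytosis (exact permutation p = 0.343 and 0.229).

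**Figure D4:**
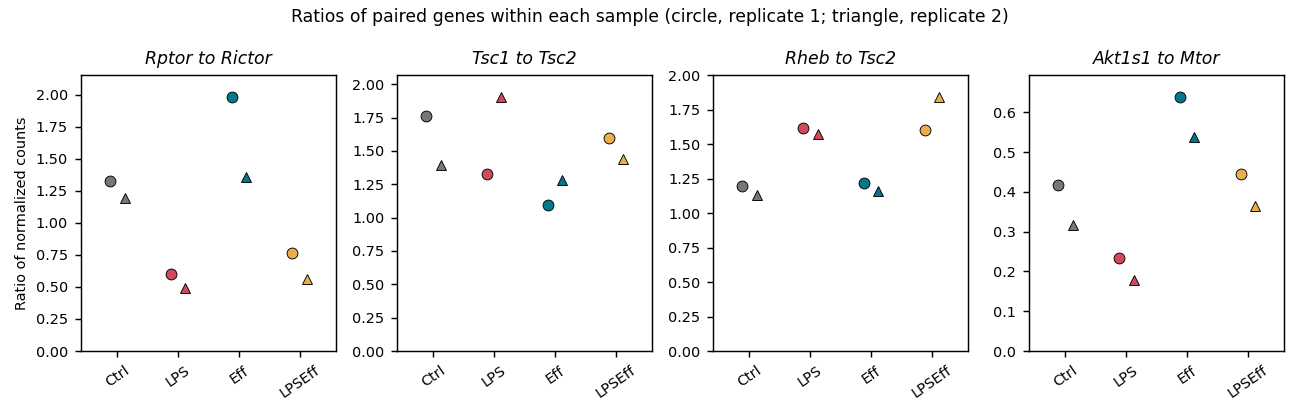
Ratios of normalized counts (linear axes from 0) of 4 gene pairs in each sample of Ctrl, LPS, Eff and LPSEff, with circles for replicate 1 and triangles for replicate 2. The ratio of Rptor to Rictor was at most 0.768 in the 4 stimulated samples and was at least 1.19 in the unstimulated samples.

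The genes around the complexes were described from 6 lists with 96 genes, of which 94 were tested. In any of the 4 contrasts, 22 of them were called (23.4%), beside 27.6% of all tested genes. LPS vs Ctrl had 10 higher and 12 lower, beside 12.4% and 11.6% of all tested genes. LPSEff vs Eff had 6 higher and 9 lower, beside 10.7% and 8.95%. The efferocytosis contrasts had 0 called each, beside only 0.251% of all tested genes in unstimulated and 0.773% in stimulated Mϕ. With shares this low, 0 of 94 does not set the listed genes apart from the rest.

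Further subunits and assembly factors of the complexes included Mapkap1 (the mTORC2 subunit SIN1) and Telo2 (a chaperone of PI3K-related kinases). Of these 11 genes 0 were called, beside 27.6% of all tested genes. The median log2 fold change was -0.19 in naïve and -0.11 in efferocytic Mϕ. Of the Rag GTPases and Ragulator, which recruit mTORC1 to the lysosome, 3 of 12 were called, all lower, beside 27.6%. Lamtor4, a Ragulator subunit, had 539 and 589 normalized counts (Ctrl), 235 and 202 (LPS), 753 and 695 (Eff), and 272 and 331 (LPSEff). It fell in naïve (log2 -1.37, limma adjusted p = 0.00175) and in efferocytic Mϕ (-1.27, 0.00293). The GTPase gene Rragd fell in both as well (-0.99 and -1.44, limma adjusted p = 0.0284 and 0.00701), and Fnip2, a partner of folliculin, fell in naïve Mϕ (-1.20, 0.0178). The list had medians of -0.36 (naïve) and -0.30 (efferocytic), and with equal totals 10 of its 12 genes were called, beside 41.7% of all tested genes.

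Among GATOR subunits and amino acid sensors, 3 of 18 were called, beside 27.6% of all tested genes, with medians of -0.02 and -0.07. With equal totals 9 were called, beside 41.7%. Wdr59, a GATOR2 subunit, rose in naïve (log2 1.08, limma adjusted p = 0.0139) and efferocytic Mϕ (0.98, 0.0232), from 95.2 to 135 normalized counts in the unstimulated to 212 to 265 in the stimulated samples. Castor2, of the arginine sensor family, rose in naïve Mϕ (0.89, limma adjusted p = 0.0121), and Sesn1, a sestrin, fell there (-1.33, 0.0206). Castor2 had 526 and 479 normalized counts (Ctrl) but 308 and 332 (Eff), 812 and 1072 (LPS) but 470.3 and 459 (LPSEff). In the averaged efferocytosis effect, Castor2 was the 1 listed gene called lower (log2 -0.83, limma adjusted p = 0.0228), and Irs1, an insulin receptor substrate, the 1 called higher (2.15, 0.0287), with 8.10 to 15.2 normalized counts in naïve and 25.4 to 76.1 in efferocytic samples. The part of the fibroblast markers in this was not tested.

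Growth factor input through PI3K and AKT had 7 of 19 called, beside 27.6% of all tested genes, with medians of 0.15 and 0.39. Pik3r5 (log2 1.30 and 1.28) and Pik3r6 (1.48 and 1.13), regulatory subunits of PI3Kγ, rose in both settings. Inpp5d, which encodes the phosphatase SHIP1, fell (-1.37 and -1.54, limma adjusted p = 0.00195 and 0.00131), and Pik3r2, a regulatory subunit of class I PI3K, fell as well (-1.27 and -1.03). Of the AMPK and LKB1 genes, an energy-sensing branch that restrains mTORC1, 2 of 11 were called (27.6% of all tested genes), with medians of -0.16 and -0.30. They were the γ subunits Prkag2 (-1.61 and -1.49) and Prkag1 (-0.85 and -0.97), both lower in both settings. With equal totals 5 of the 11 were called, beside 41.7%.

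Substrates and close effectors had 7 of 23 called, beside 27.6% of all tested genes, with medians of -0.06 and 0.23. Tfeb, a transcription factor of lysosomal genes that mTORC1 phosphorylates, had 439.9 and 278 normalized counts (Ctrl), 64.7 and 86.3 (LPS), 306 and 239.9 (Eff), and 58.6 and 57.1 (LPSEff). It fell in both settings (log2 -2.21 in each, limma adjusted p = 0.00124 and 0.00139). Eif4ebp2, a translational repressor, fell (-1.05 and -1.20), as did Lpin1, a phosphatidate phosphatase (-1.50 and -0.91). Prkcd, a protein kinase C, rose in both settings (1.00 and 1.07). In naïve Mϕ, Pdcd4, an inhibitor of eIF4A, rose from 62.8 and 90.2 to 181 and 456 normalized counts (log2 1.92, limma adjusted p = 0.0481), and the RNA-binding protein gene Larp1 rose as well (1.26, 0.0294). Rps6, the ribosomal protein read out for mTORC1 activity, had only 10.2 to 41.2 normalized counts, and since it has near-identical copies in the genome its value is uncertain.

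**Figure D5:**
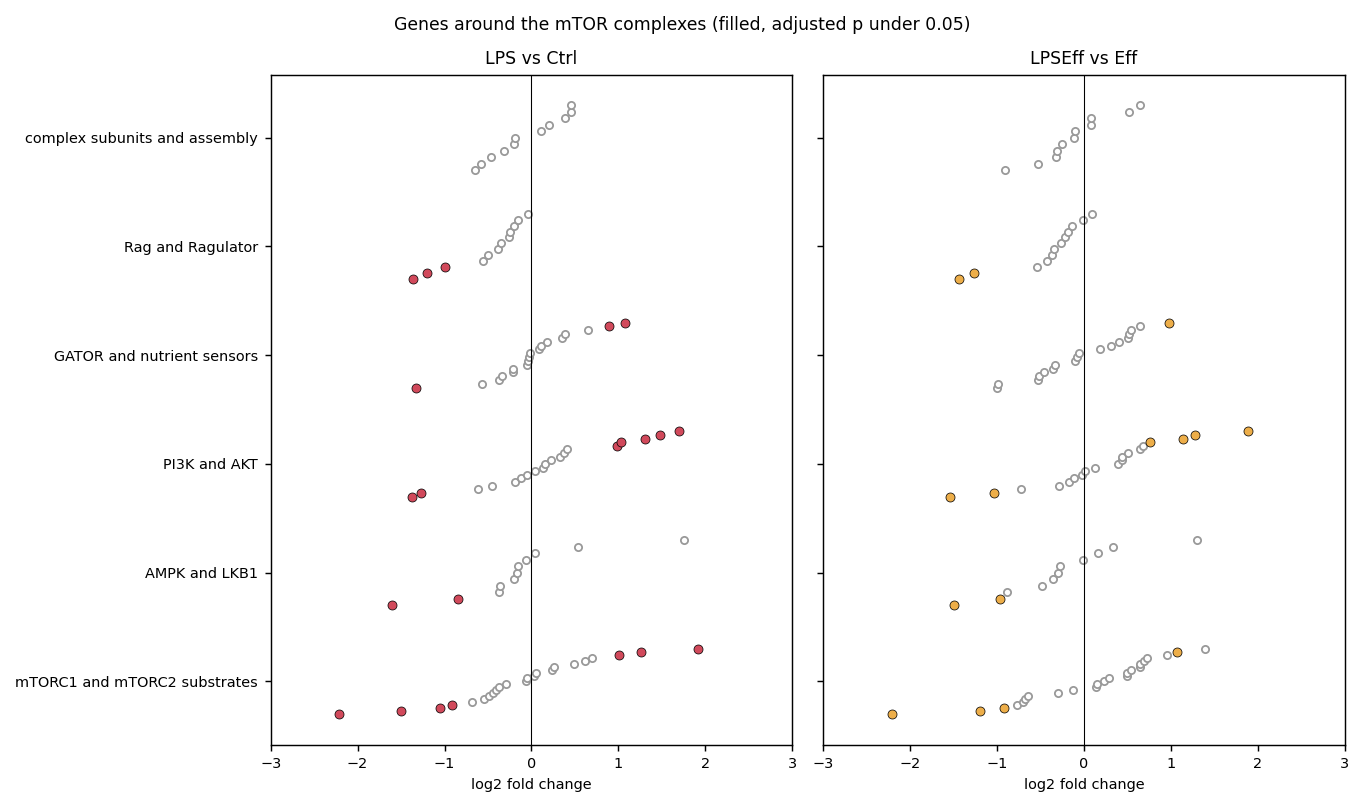
Log2 fold changes from limma of 94 tested genes in 6 lists around the mTOR complexes for LPS vs Ctrl and LPSEff vs Eff, 1 point per gene and sorted within each list. Filled points had an adjusted p under 0.05, and the lowest point in both panels is Tfeb at -2.21.

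As a description, the genes whose log2 values followed those of a called member over the 8 samples were listed by Pearson's r. They were Tank (0.999), Skil (0.998) and Birc3 (0.997) for Rictor, Ide (0.998), Srpk2 (0.997) and Gask1b (0.995) for Deptor, Gm44423 (0.989), Zfp821 (0.988) and Gucd1 (0.987) for Mtor, and Gm22365 (0.988), Lrrc32 (0.981) and Sdk1 (0.976) for Ddit4. The 8 samples share their 4 groups, and these genes were the highest of 16309.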

How the data were processed

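Total RNA of 8 BMDM samples (4 groups, 2 each) was sequenced after rRNA depletion. According to the labels and methods, the authors used cutadapt for adapters, Bowtie2 to discard rRNA reads, STAR for mapping to mm39, HTSeq in its default mode for gene counts, and DESeq2. HTSeq's default mode keeps reads on the gene's own strand and drops ambiguous and multiply mapped ones. Tool versions and the annotation release are not given in the sources used here. The authors deposited a signal, namely counts of each gene after division by a size factor (normalized counts). In each sample 100% of values were whole multiples (tolerance 0.01) of the smallest nonzero value, taken as 1 read, which gave 3481288 to 12020918 reads. The limit of 3 reads corresponds to 1.73 to 5.71 normalized counts and covers counting error only.

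GENCODE names and positions on GRCm39 (the same assembly as mm39) were matched for 54749 identifiers (98.9%). Values were taken as log2 after adding a pseudocount of 1, so that changes of low genes are understated. For 16309 genes averaging 10 normalized counts or more, limma (version 3.58.1 in R 4.3.3, trend option) was fitted with 4 group means, 4 residual degrees of freedom and Benjamini-Hochberg adjustment over all tested genes. Genes were called at an adjusted p under 0.05. Ratios were compared by exact permutation. The fits were also run on simulated counts without a replicate effect, which checks the code and not its fitness for these data. The alternatives were other pseudocounts (0.5, 5), other filters (mean above 0, mean of 50 or more), a fit of only the compared groups, a replicate block, equal totals, quantile normalization, recovered reads in edgeR (version 4.0.16) or DESeq2 (version 1.42.0), and omission of each sample in turn. The 10 members and all lists were chosen with earlier results of these data known. Named genes are all members, the 3 largest called rises and falls per list and contrast, and the 3 genes most like each called member. A gene that this rule names is not reported here. Irs1, Rps6, Mapkap1 and Telo2 were named after their values were seen.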

Additional observations from a re-analysis of the deposited data

Results flagged for a closer look

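Ddit4 moved in opposite directions after efferocytosis without and with LPS/IFNγ in the samples of the same number. Eff was 0.690-fold and 0.624-fold of Ctrl (replicates 1 and 2), whereas LPSEff was 1.38-fold and 1.39-fold of LPS. The difference between the 2 efferocytosis effects was 1.07 on the log2 scale (SE 1.05, 95% interval -1.33 to 3.48), and the interaction was not called by limma (adjusted p = 0.9999). Between the groups themselves, Eff lay below Ctrl without overlap, and LPSEff and LPS overlapped. How many of all tested genes separate in this way with 2 samples per group was not counted.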

How the results depend on the processing

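Of the member results under the alternatives, 1177 kept their side of the threshold, 16 gained and 37 lost the call, and no called value changed sign. Most of these results had no call to lose. Without any alternative, 3 members were called in LPS vs Ctrl, 3 in LPSEff vs Eff and 5 for the averaged LPS/IFNγ effect. Mtor kept its call in 6 of 18 alternatives (LPS vs Ctrl) and 10 of 17 (averaged). Mlst8 kept its averaged call in 7 of 17. In LPSEff vs Eff, Ddit4 kept its call in 12 of 18 and Deptor in 16 of 18. Rictor kept its call in both LPS/IFNγ contrasts in all alternatives. Members called rose to 5 in LPS vs Ctrl, 5 in LPSEff vs Eff and 8 for the averaged LPS/IFNγ effect with equal totals, beside 35.2%, 34.2% and 50.1% of all tested genes (8165 for the last), and dropped to 3 for the last with genes of a mean above 0. Leaving out 1 sample gave 2 to 3 members (LPS vs Ctrl), 1 to 3 (LPSEff vs Eff), 3 to 4 (averaged LPS/IFNγ effect) and 0 in the efferocytosis contrasts.

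The replicate numbers come from the sample names, and no source says that they mark a shared preparation. Differences between replicates correlated across groups (r from 0.404 to 0.595). With the number as a replicate block, 5 members were called in LPS vs Ctrl, adding Mlst8 (limma adjusted p = 0.0459) and Ddit4 (0.0239), 1 for the averaged efferocytosis effect (Akt1s1, 0.0131) and 6 for that of LPS/IFNγ, adding Tsc2 (0.0303). All genes called with the replicate block numbered 6717 (41.2%) in LPS vs Ctrl and 6033 in LPSEff vs Eff. In the efferocytosis contrasts they numbered 436 (Eff vs Ctrl) and 1137 (LPSEff vs LPS). For the averaged effects they numbered 8592 (52.7%) for LPS/IFNγ and 1845 (11.3%) for efferocytosis. Lists with the block had 2 of 11 (complex subunits), 6 of 12 (Rag), 6 of 18 (GATOR), 5 of 11 (AMPK) and 16 of 23 (substrates) called in any contrast, beside 49.6% of all genes.

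With equal totals, 5578 genes were called in LPSEff vs Eff, and lists had 3 of 11 (complex subunits), 10 of 12 (Rag), 9 of 18 (GATOR) and 5 of 11 (AMPK) called in any contrast, beside 41.7%. Averaged LPS/IFNγ effects that gained the call were Rptor (-0.56), Tsc1 (-0.55), Tsc2 (-0.74) and Akt1s1 (-0.64). Eff vs Ctrl called 204 genes with DESeq2, 14 with edgeR, 79 with a mean above 0, 20 with a mean of at least 50 and 9 with only the groups compared, against 41. LPSEff vs LPS called 368 with DESeq2 and 66 with only the groups compared, against 126. The averaged efferocytosis effect called 644 with DESeq2 and 208 with a mean of at least 50, against 313. Leaving out 1 sample gave 2076 to 3562 genes in LPS vs Ctrl, 1567 to 3407 in LPSEff vs Eff, 0 to 45 in Eff vs Ctrl, 0 to 84 in LPSEff vs LPS, 4701 to 5577 and 83 to 421 for the averaged effects of LPS/IFNγ and efferocytosis, and 1 to 3 for the GATOR list. The cause of these shifts was not tested. A sample left alone in its group was assumed to vary like the others. The part of depth in them was not tested either.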
